A study of Mus musculus with 38 samples.

Results

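The genes described here are 10 transcripts of the unfolded protein response and the integrated stress response: Hspa5, Sdf2l1, Dnajb9, Herpud1, Xbp1, Atf4, Ddit3, Trib3, Chac1 and Asns. They were taken by symbol from the 55487 genes of the count table, and all 10 passed the count filter in each of the 3 experiments. The symbol list matched 11 rows, because a second Ensembl gene also carries the name Ddit3. That second gene shares 105 exonic bases with Ddit3 on the same strand and had no read in any library, so the Ddit3 counts may lack reads from the shared stretch.

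When unfolded proteins build up in the endoplasmic reticulum (ER), sensors in its membrane switch on chaperones and degradation factors, in part through the spliced form of the transcription factor XBP1 and through ATF6. One sensor, PERK, is also a kinase of the initiation factor eIF2alpha. It shares that target with kinases that sense amino acid shortage, viral RNA or heme, and phosphorylation of eIF2alpha slows translation in general while favouring translation of ATF4. ATF4 then raises genes of amino acid supply and, with CHOP, genes of the stress effector arm. In kidney, both branches are known from tubular and glomerular injury. Much of the regulation lies in splicing and translation, which gene-level counts do not show.

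Mice and kidney slices received recombinant human fibroblast growth factor 23 (FGF23), a phosphate-regulating hormone, or its vehicle. The files hold 38 bulk RNA-Seq libraries. In the anti-GBM experiment, male C57BL/6JRj mice aged 10 weeks were either healthy or had anti-glomerular basement membrane disease, made by immunization with sheep IgG in Freund's adjuvant and a later injection of nephrotoxic serum, for which healthy mice received the buffer. They received daily intravenous vehicle (healthy n = 4, anti-GBM n = 4) or 1 µg FGF23 (healthy n = 3, anti-GBM n = 3) for 6 days. In the Adriamycin experiment, female BALB/c mice aged 10 weeks, healthy or given a single intravenous dose of the podocyte toxin Adriamycin, received 1 injection of vehicle or 1 µg FGF23 and were examined 24 h later (n = 4 in each of the 4 groups). The third experiment used precision-cut kidney slices (PCKS) of male DBA/2J mice with adenine nephropathy, which were cultured and then exposed to vehicle or 200 ng/mL FGF23 (n = 4 each). These mice were aged 23 weeks. The labels give 1 h for the exposure, the text of the paper differs, and there were no slices of healthy mice.

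Libraries of anti-GBM mice and their controls held 13704248 to 23630210 counts, those of the Adriamycin series 15665050 to 27583911 and those of slices 11186925 to 16254987. Replicates of a group differed by more than sampling noise in every pair. All kidney groups expressed proximal tubule, podocyte and collecting duct markers. In vehicle slices, however, the summed level of 5 proximal tubule markers was 256 to 376 CPM (counts scaled to a common library size), against 9804 to 12812 CPM in healthy C57BL/6 kidneys, so the slices held little proximal tubule RNA by this measure. The tubular injury markers Havcr1 and Lcn2 summed to 34.2 to 89.4 CPM in Adriamycin kidneys and to 76.7 to 164 CPM in healthy BALB/c kidneys, both under vehicle, which is not the order that the disease label would give. The paper reports a raised urinary albumin to creatinine ratio and raised serum creatinine in its Adriamycin mice. Since the samples were bulk tissue, fewer cells of a type and less RNA per cell cannot be told apart in any value given here.

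For orientation, the members whose promoters hold a known response element are printed with it. Promoters of all 10 members were found in RefSeq sequence of build GRCm38.p6, each with 250 bases before and 50 after the annotated start. The ER stress response element (ERSE, CCAAT and CCACG with 9 bases between them, bound by NF-Y with ATF6) was searched on both strands, as were the shorter ERSE-II (ATTGG and CCACG with 1 base between them), the core of the unfolded protein response element (TGACGTGG), the C/EBP-ATF response element (CARE, TGATGNAAN), through which ATF4 acts, and the cyclic AMP response element (TGACGTCA). Capitals mark the match. All are written along the strand of the gene, so a CARE on the other strand reads NTTNCATCA.
Hspa5, chr2:34772020-34772048, plus strand, ERSE: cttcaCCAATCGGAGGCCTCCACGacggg
Herpud1, chr8:94386296-94386407, plus strand, CARE then ERSE-II: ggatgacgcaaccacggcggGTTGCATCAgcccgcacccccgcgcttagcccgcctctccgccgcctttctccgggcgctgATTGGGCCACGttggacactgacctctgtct
Trib3, chr2:152344029-152344057, minus strand, CARE: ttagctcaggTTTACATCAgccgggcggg
Chac1, chr2:119351028-119351076, plus strand, CARE: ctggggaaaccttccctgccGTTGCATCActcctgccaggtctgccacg
Asns, chr6:7693214-7693242, minus strand, CARE: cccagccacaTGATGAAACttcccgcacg

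An ERSE was present in the promoter of Hspa5 only among the 10 members and in 0.119% of 32851 RefSeq promoters. The ERSE-II was present in Herpud1 and in 0.0365% of all promoters, and the CARE in 4 members and in 3.95% of all promoters. The CARE of Trib3 lies 13 to 21 bases after the first base of the RefSeq transcript, whereas the others lie before it. Neither of the other motifs occurred in a member's window (0.676% and 1.79% of all promoters). These matches describe letters in a short window and no binding was measured.

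The levels of the 10 genes were first compared among themselves in healthy C57BL/6 kidneys under vehicle, as CPM per kilobase of annotated exon. Herpud1, an ER membrane protein of ER-associated degradation, was at 133 ± 2.04 (SD, n = 4), and Hspa5, the chaperone BiP, was at 96.8 ± 14.5. Xbp1 was at 41.8 ± 1.60, Atf4 at 26.2 ± 2.29 and Dnajb9, an ER co-chaperone of BiP, at 20.7 ± 0.789. Sdf2l1, a further ER co-chaperone, was at 5.38 ± 0.876 and Ddit3, which encodes CHOP, at 3.72 ± 0.926. At the low end were Asns (asparagine synthetase) with 1.40 ± 0.461, the pseudokinase Trib3 with 0.604 ± 0.087 and the glutathione-degrading enzyme Chac1 with 0.312 ± 0.255. The last of these values rests on 2 to 23 reads per library, so Chac1 was the least precisely measured member. The spreads of Sdf2l1 and Ddit3 adjoin each other, as do those of Trib3 and Chac1, and the order within those pairs is not settled by these libraries.

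**Figure D1:**
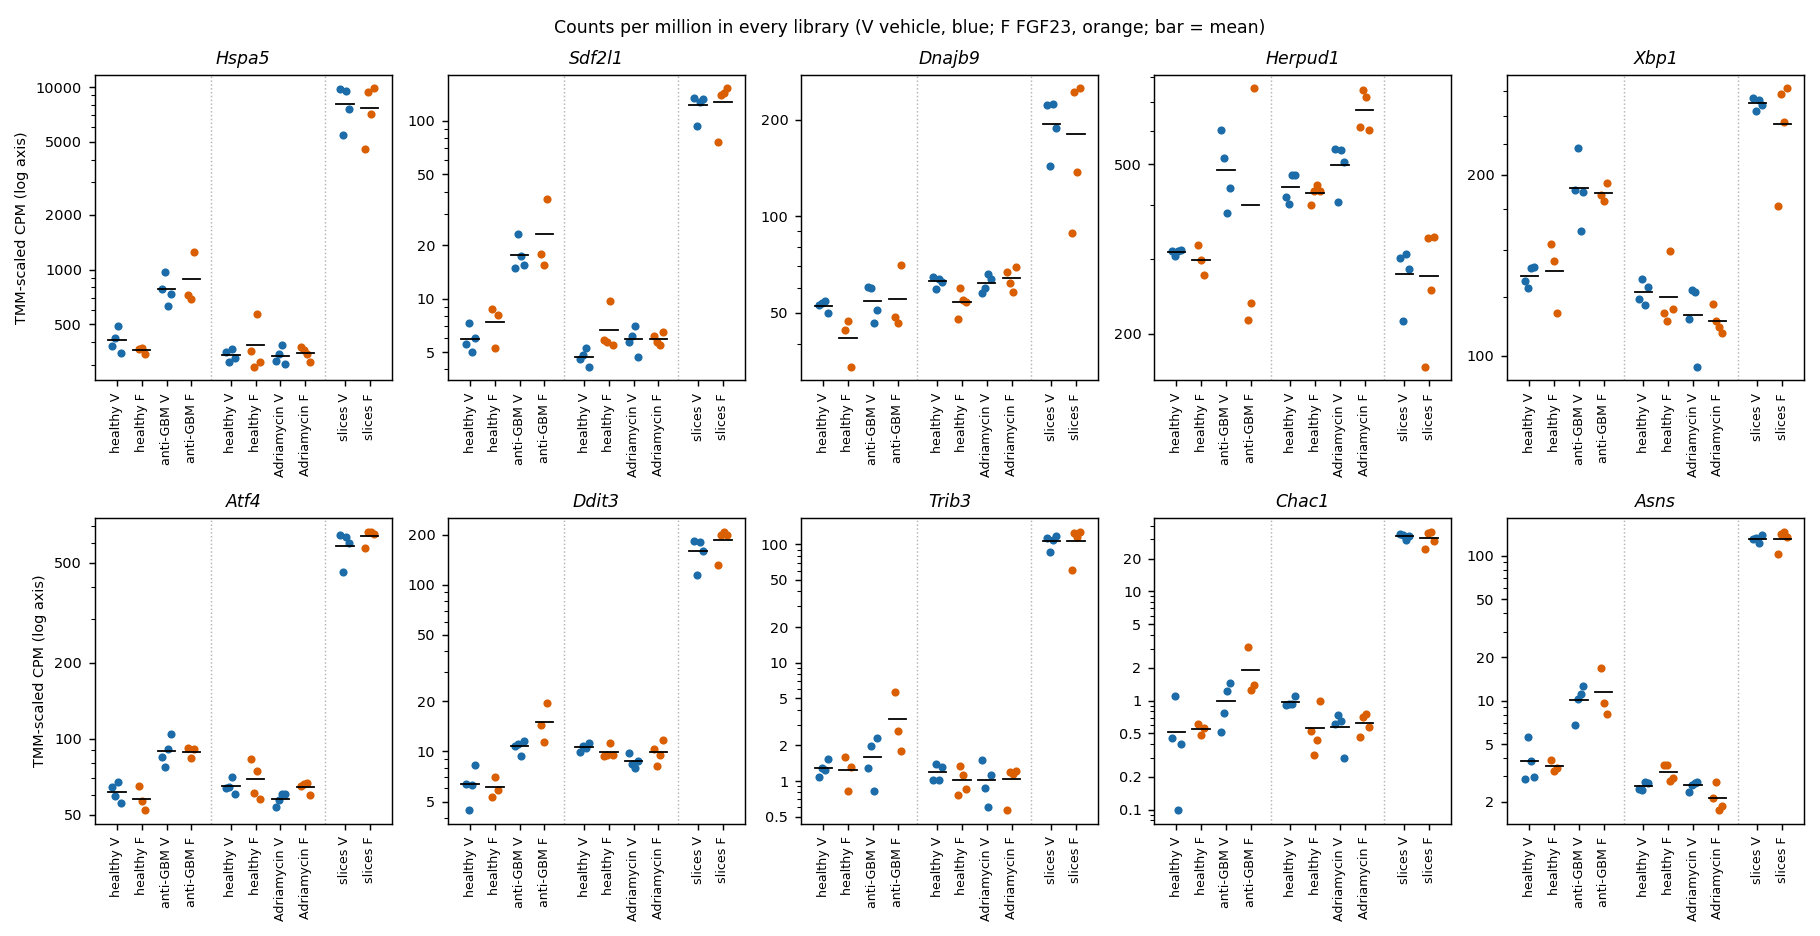
Each panel plots 1 gene, with the 10 groups along the horizontal axis and TMM-scaled CPM on a logarithmic vertical axis; points are libraries (blue vehicle, orange FGF23), bars are group means, and dotted lines part the 3 experiments, which were scaled separately. Hspa5, Sdf2l1, Xbp1, Atf4, Ddit3 and Asns are higher in anti-GBM kidneys than in healthy ones, the Adriamycin groups lie close together apart from Herpud1, and the slices are at the top for every member but Herpud1.

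The comparison of anti-GBM with healthy kidneys under vehicle asked how these genes differed with disease. The disease was made with an immunization and nephrotoxic serum, whose own effects cannot be told apart from it. Of the 10 members, 6 rose (Hspa5, Sdf2l1, Xbp1, Atf4, Ddit3 and Asns) and none fell at an adjusted p below 0.05. In this comparison 39.8% of all 15859 genes were called, and 19.4% were called as higher. The median log2 fold change was 0.70 over the members and -0.01 over all genes tested. Values below are CPM after TMM scaling, and fold changes are from edgeR on log2 scale with their standard errors (SE).

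Among the ER chaperones, Hspa5 was measured at 379, 419, 491 and 349 CPM in the 4 healthy mice and at 786, 967, 628 and 731 CPM in the 4 anti-GBM mice. Every diseased kidney was above every healthy one, as for 7 members in this comparison, while the 2 groups were apart in this way for 35.2% of all genes in either direction. The log2 fold change of Hspa5 was 0.93 (SE 0.18, adjusted p = 0.00133), a 1.90-fold rise. Sdf2l1 was at 5.55, 7.27, 4.99 and 6.03 CPM in healthy and at 14.8, 23.2, 17.3 and 15.4 CPM in anti-GBM kidneys, again without overlap, and rose 2.95-fold (log2 fold change 1.56, SE 0.26, adjusted p = 0.000482). Dnajb9, which also encodes an ER co-chaperone, had 52.8, 53.7, 54.4 and 49.8 CPM in healthy and 60.1, 59.6, 46.4 and 51.2 CPM in anti-GBM mice. These groups overlapped and the log2 difference was 0.04 with a 95% interval from -0.22 to 0.31, so a change of the size of that in Hspa5 lay outside its interval. Both sets of 4 mice also did not overlap for Herpud1, with 304 to 314 CPM in healthy and 384, 439, 517 and 602 CPM in diseased kidneys, yet its log2 fold change of 0.64 (SE 0.30) had an adjusted p of 0.104. This SE comes from a spread shared by all 4 groups, and without the FGF23-treated mouse NTS16, described below, the same fold change of 0.64 had an SE of 0.12 and an adjusted p of 0.00109.

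Of the transcription factors, Xbp1 was at 133, 130, 140 and 140 CPM in healthy and at 188, 222, 161 and 187 CPM in anti-GBM kidneys, a 1.40-fold rise (log2 fold change 0.48, SE 0.10, adjusted p = 0.00166). The counts do not separate its spliced from its unspliced form. Atf4 was at 64.5, 59.3, 67.7 and 55.5 CPM in healthy and at 84.7, 77.3, 90.8 and 104 CPM in anti-GBM kidneys, and rose 1.45-fold (log2 fold change 0.53, SE 0.10, adjusted p = 0.000919). Ddit3, the proapoptotic factor downstream of ATF4, moved from 6.39, 4.47, 6.29 and 8.35 CPM to 10.8, 11.1, 9.35 and 11.6 CPM (log2 fold change 0.75, SE 0.19, adjusted p = 0.00656). In all 3 genes the lowest diseased kidney was above the highest healthy one.

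The ATF4 targets were less uniform. Asns, which makes asparagine, was at 2.89, 5.61, 3.84 and 2.98 CPM in healthy and at 6.75, 10.3, 11.04 and 12.5 CPM in anti-GBM mice, a 2.62-fold rise (log2 fold change 1.39, SE 0.27, adjusted p = 0.00117). Trib3, an inhibitor of AKT and of ATF4 itself, was at 1.08 to 1.52 CPM in healthy and at 1.28, 1.99, 0.822 and 2.30 CPM in anti-GBM mice. Those groups overlapped, and the log2 difference of 0.30 had a 95% interval from -0.47 to 1.07. Chac1 was at 0.0998 to 1.09 CPM in healthy and at 0.511 to 1.44 CPM in diseased mice, also with overlap (log2 difference 0.90, 95% interval -0.13 to 1.94, adjusted p = 0.192). Its highest healthy value came from mouse NTS2, and its log2 fold change without that mouse, 1.68, had an adjusted p of 0.0312. Without NTS3, the lowest healthy mouse, the log2 fold change was 0.59. Leaving out each mouse in turn gave adjusted p values from 0.0312 to 0.356, and only the fit without NTS2 called Chac1.

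**Figure D2:**
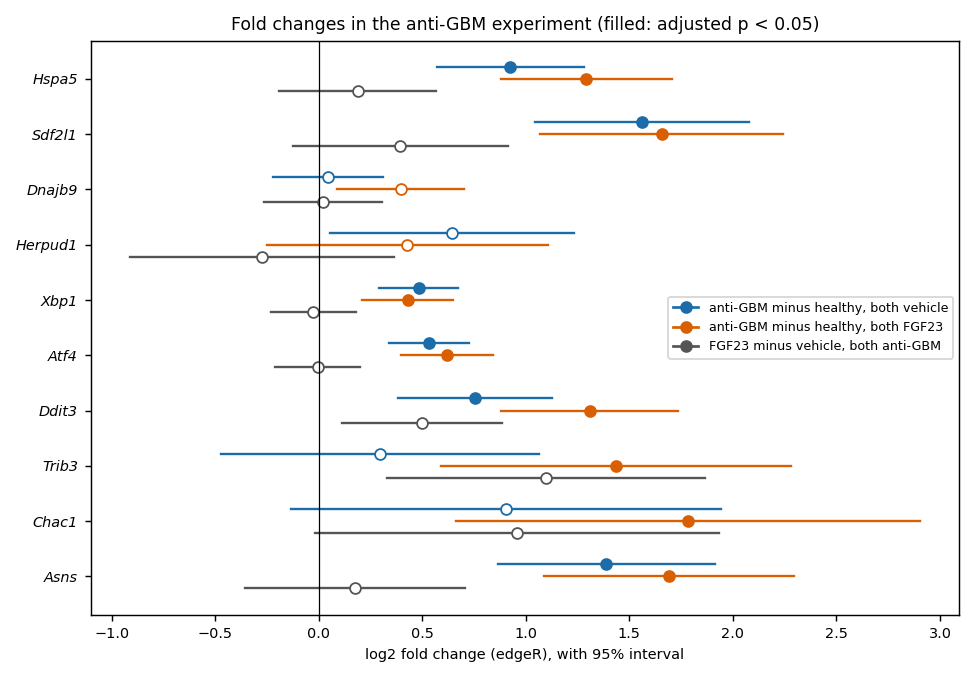
For each gene the log2 fold change (point) and its 95% interval (line) are plotted for 3 comparisons of the anti-GBM experiment: disease under vehicle (blue), disease under FGF23 (orange) and FGF23 within diseased mice (grey); filled points have an adjusted p below 0.05. All points of the disease comparisons lie above 0, 6 of 10 are filled under vehicle and 8 of 10 under FGF23, and no grey point is filled.

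Under FGF23, the comparison of anti-GBM with healthy mice called 8 of the 10 members, all as higher, in a background of 27.2% of genes called and 14.5% called as higher. Hspa5 rose from 366, 374 and 347 CPM in the 3 healthy mice to 723, 689 and 1246 CPM in the 3 diseased mice NTS13, NTS14 and NTS16 (log2 fold change 1.29, SE 0.21, adjusted p = 0.000598). Sdf2l1 rose from 8.78, 5.24 and 8.08 CPM to 17.7, 15.5 and 36.3 CPM (log2 fold change 1.66, SE 0.30, adjusted p = 0.0012). Ddit3 rose from 5.35, 7.07 and 5.85 CPM to 14.5, 11.4 and 19.5 CPM (log2 fold change 1.31, SE 0.22, adjusted p = 0.000686). In these 3 genes NTS16 was the highest of the diseased mice. Diseased and healthy mice did not overlap for 8 members, and for 45.4% of all genes. Xbp1 and Atf4 rose by 0.43 (SE 0.11) and 0.62 (SE 0.11) on the log2 scale, with adjusted p values of 0.0119 and 0.00135.

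Among the same 3 mice, Asns, Trib3 and Chac1 had a different highest mouse from Ddit3, which also lies downstream of ATF4. Asns rose from 3.90, 3.27 and 3.41 CPM to 16.7, 9.56 and 8.02 CPM (log2 fold change 1.69, SE 0.31, adjusted p = 0.0013). Trib3 rose from 1.60, 0.817 and 1.32 CPM to 5.67, 2.65 and 1.78 CPM (log2 fold change 1.43, SE 0.43, adjusted p = 0.0236). Chac1 rose from 0.610, 0.481 and 0.557 CPM to 3.07, 1.25 and 1.39 CPM (log2 fold change 1.78, SE 0.57, adjusted p = 0.0322). In all 3 genes NTS13 was the highest mouse. The Trib3 and Chac1 calls were fragile: Trib3 lost its call without healthy mouse NTS10 or NTS11 or diseased mouse NTS13 (adjusted p = 0.0877, 0.0559 and 0.165), and Chac1 without NTS9, NTS10, NTS11 or NTS13 (adjusted p = 0.0744, 0.0879, 0.0779 and 0.169). The 2 members not called were Dnajb9 (log2 difference 0.40, adjusted p = 0.0749) and Herpud1 (0.43, adjusted p = 0.394). Dnajb9 had an adjusted p of 0.0461 with no count filter and 0.0394 without NTS14. Without NTS16, however, its log2 difference was 0.18, and its adjusted p reached 0.37 when mice were left out in turn. Its level was 70.5 CPM in NTS16, against 48.6 CPM in NTS13 and 46.4 CPM in NTS14.

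Several features of the tissue moved together with these genes in anti-GBM kidneys. Both tubular injury markers, Havcr1 and Lcn2, rose under vehicle, and their sum went from 1.44 to 3.27 CPM in healthy mice to 183 to 586 CPM in anti-GBM mice. Of 5 macrophage markers 4 rose (summed 86.9 to 108 against 217 to 327 CPM), and so did all 3 fibroblast markers (151 to 238 against 608 to 880 CPM). Of 5 proximal tubule markers 3 fell (9804 to 12812 against 6988 to 11853 CPM). Of 6 immediate early genes, which respond to handling of tissue, 4 rose (46.1 to 144 against 170 to 307 CPM). The share of counts on mitochondrial genes was 11.1 to 12.0% in healthy and 7.65 to 8.74% in anti-GBM kidneys. None of the genes in these lists was at 0. Of the smaller lists, the pan-leukocyte gene Ptprc rose (10.3 to 14.96 against 13.06 to 30.8 CPM under vehicle, 11.1 to 16.43 against 35.7 to 42.6 CPM under FGF23). The 2 collecting duct markers summed to 121 to 182 against 201 to 393 CPM under vehicle, where Atp6v1g3 rose, and to 132 to 433 against 251 to 280 CPM under FGF23. The 3 T cell markers summed to 1.18 to 2.50 against 1.75 to 4.15 CPM under vehicle, where Cd3e rose, and to 1.81 to 2.50 against 4.35 to 4.80 CPM under FGF23. The endothelial gene Kdr fell under both treatments, and the B cell gene Cd79a fell under FGF23. No gene of the thick ascending limb, distal convoluted tubule, podocyte, adrenal or adipocyte lists was called in either disease comparison. The 4 plasma cell markers summed to 1.39 to 2.04 CPM in healthy and 1.46 to 2.51 CPM in anti-GBM mice under vehicle, and to 1.27 to 1.62 and 1.69 to 3.95 CPM under FGF23. Under FGF23 the injury, macrophage and fibroblast sums of diseased mice were 252 to 701, 294 to 325 and 937 to 1201 CPM, against 4.602 to 8.27, 96.9 to 132 and 191 to 229 CPM in healthy mice, and the plasma cell marker Jchain rose (log2 fold change 1.42, SE 0.42). The part of cell composition and handling in the changes of the 10 members was not tested.

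The wider pathway was described with 8 gene lists. Counts under vehicle stand beside 39.8% of all genes called and 19.4% called as higher. Under vehicle, 9 of 19 ER chaperones and folding enzymes rose and 3 fell, with a list median of 0.15 against -0.01 for all genes. Creld2, a secreted ER stress protein, rose by a log2 fold change of 1.501 (SE 0.19), Manf, a protein released on ER calcium loss, by 1.23 (SE 0.24), and Hyou1, an ER chaperone of the Hsp70 type, by 0.69 (SE 0.12). Genes of ER-associated degradation and translocation were divided, with 2 of 19 higher and 5 lower. Derl3 rose by 2.38 (SE 0.45), while the mannosidase-like genes Edem3 and Edem1 fell by 0.63 and 0.60. Of 12 sensors, kinases and phosphatase subunits, 1 rose, Ppp1r15a (0.78, SE 0.22), whose product lets eIF2alpha lose its phosphate, and 3 fell, among them the XBP1-splicing sensor Ern1 (-0.50, SE 0.13) and the ATF6-cleaving protease Mbtps2 (-0.43, SE 0.13).

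Lists of genes downstream of ATF4 gave the following counts under vehicle, beside the same shares of 39.8% called and 19.4% called as higher. Among 16 genes of amino acid supply 7 rose and 3 fell, and the list median was 0.45. The amino acid transporter Slc7a5 rose by 1.38 (SE 0.19), the mitochondrial folate enzyme Mthfd2 by 1.33 (SE 0.23) and the proline synthesis enzyme Aldh18a1 by 1.28 (SE 0.21). Among 14 tested stress effectors 10 rose and 1 fell, with a median of 0.98. The transcription factors Atf3 and Cebpb rose by 3.46 (SE 0.39) and 2.39 (SE 0.23), and Ddit4, an inhibitor of mTORC1, by 2.61 (SE 0.41). These factors also respond to inflammation and to other stresses. Of 12 cytosolic aminoacyl-tRNA synthetases 5 rose and none fell, with Mars1 at 0.34 (SE 0.09).

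Lists of other compartments were set beside these. Of all genes, 39.8% were called under vehicle and 27.2% under FGF23, with 19.4% and 14.5% called as higher. Of 10 cytosolic heat shock genes 1 rose under vehicle, the small heat shock gene Hspb1 (3.70, SE 0.27), and none fell. Under FGF23 the same comparison called 5 as higher, including Hspb1 (3.12, SE 0.30), Bag3 (0.70, SE 0.15) and Dnajb1 (0.64, SE 0.14). Of 8 mitochondrial chaperones and proteases none rose under either treatment, while 4 fell under vehicle and 5 under FGF23, including Trap1 (-0.33, SE 0.09 and -0.50, SE 0.11). Under FGF23, 6 of 19 ER chaperones rose and none fell, 3 and 2 of 19 degradation genes rose and fell, and 1 sensor rose, Eif2ak3 (0.36, SE 0.10), which encodes PERK. Of the ATF4-type genes, 7 of 16 supply genes and 7 of 14 effectors rose, 1 of each fell, and 2 synthetases rose.

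The next question was whether FGF23 changed these genes in diseased mice. No member was called between FGF23 and vehicle in anti-GBM mice by edgeR (0.24% of all genes called) or by DESeq2 (0.939%). At an unadjusted p below 0.05 there were 2 members, Trib3 and Ddit3, both higher, beside 12.6% of all genes. Trib3 had a log2 difference of 1.097 (SE 0.39, adjusted p = 0.33) and Ddit3 of 0.50 (SE 0.20, adjusted p = 0.358). This comparison shares its vehicle mice with the disease comparison under vehicle. No member had FGF23 and vehicle mice without overlap (9.22% of genes did). For Atf4 and Xbp1 the differences were -0.005 and -0.03, with 95% intervals from -0.21 to 0.20 and from -0.23 to 0.18. None of the 8 pathway lists held a called gene here with edgeR, and DESeq2 called 1 stress effector as lower and 1 heat shock gene as higher. In the healthy mice of both strains given FGF23, neither tool called a gene of these lists.

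The group means hid a split between the FGF23-treated anti-GBM mice, which was clearest in Herpud1. Its levels were 216 CPM in NTS13 and 236 CPM in NTS14 but 753 CPM in NTS16, whereas the 4 vehicle-treated anti-GBM mice lay between 384 and 602 CPM and the 7 healthy mice between 274 and 324 CPM. Thus NTS13 and NTS14 were below every other mouse of the experiment, and NTS16 was above every other. With all mice the log2 difference between FGF23 and vehicle was -0.27 (SE 0.33, adjusted p = 0.736). Without NTS16 it was -1.103 (SE 0.15) with an adjusted p of 0.00512, so 1 mouse decided whether the gene was called. The interaction of FGF23 with disease for Herpud1 was -0.21 (SE 0.46) with all mice, and -1.04 with an adjusted p of 0.0816 without NTS16.

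The order of the same mice varied among the other members. NTS16 was the highest of the 3 mice in Hspa5, Sdf2l1, Dnajb9, Herpud1, Xbp1 and Ddit3, and the lowest in Trib3 and Asns. NTS13 was the highest in Atf4, Trib3, Chac1 and Asns and the lowest in Herpud1. NTS14 was the lowest in Hspa5, Sdf2l1, Dnajb9, Xbp1, Atf4, Ddit3 and Chac1. Some of these ranks were close, as in Xbp1 (181 to 193 CPM) and Atf4 (84.1 to 91.8 CPM). Among vehicle-treated anti-GBM mice, NTS8 was the highest in Atf4, Ddit3, Trib3, Chac1 and Asns and in no ER gene. In the marker lists, NTS13 had the highest tubular injury sum of the 3 FGF23-treated mice (701 CPM, against 269 CPM in NTS14 and 252 CPM in NTS16) and the lowest proximal tubule sum (6632, 7825 and 8540 CPM). The macrophage sums were close (325, 317 and 294 CPM), and total counts were 18336993, 18233324 and 19082542. Which of these features, if any, goes with the split in Herpud1 was not tested.

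**Figure D3:**
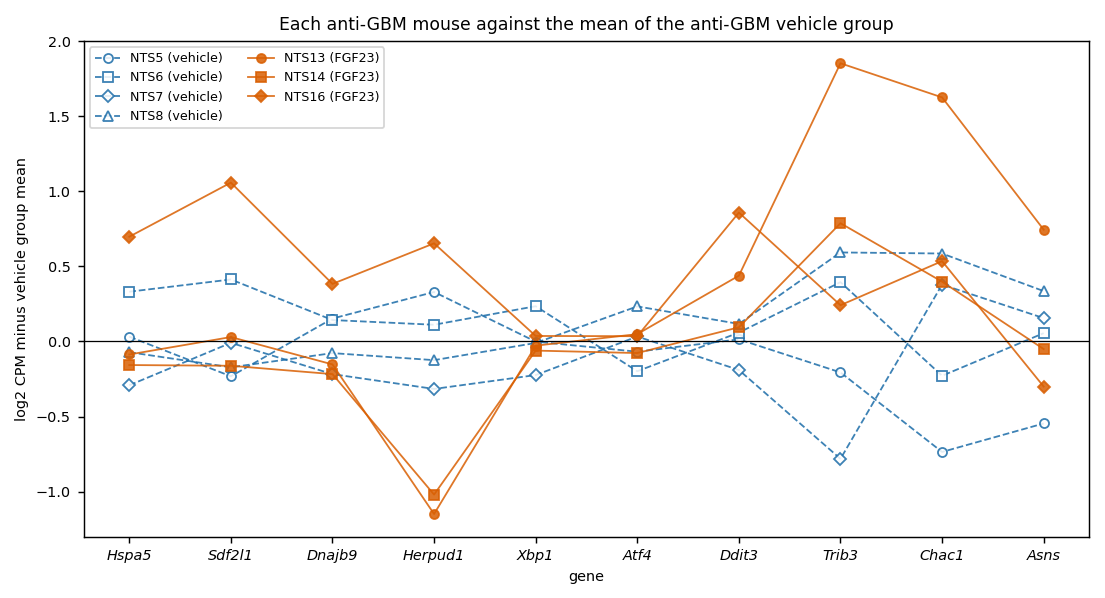
The log2 CPM of each anti-GBM mouse minus the mean of the vehicle-treated anti-GBM group (vertical axis) is plotted for the 10 genes (horizontal axis); dashed blue lines with open markers are the 4 vehicle mice and orange lines the 3 FGF23 mice. NTS16 is at the top from Hspa5 to Herpud1 and in Ddit3, NTS13 at the top in Trib3, Chac1 and Asns, and NTS13 and NTS14 fall by about a log2 unit in Herpud1 alone.

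In healthy C57BL/6 mice no member was called after 6 days of FGF23 by edgeR or DESeq2, and neither tool called any gene (0% of genes for both). Only Dnajb9 had an unadjusted p below 0.05, beside 4.34% of all genes. It was at 44.2, 47.3 and 34.004 CPM under FGF23, below all 4 vehicle mice, where 7.31% of all genes had groups without overlap (log2 difference -0.33, SE 0.15, adjusted p = 0.996). The test of whether FGF23 acted differently in diseased and healthy mice called no member with either tool, with 0.0315% of genes called by edgeR and 0.27% by DESeq2. No member reached an unadjusted p below 0.05 in it (8.3% of genes). Trib3 and Ddit3 had the lowest p values there, with interaction terms of 1.14 (95% interval -0.003 to 2.28) and 0.56 (95% interval -0.01 to 1.12).

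Adriamycin under vehicle called none of the 10 with edgeR (0.331% of 16020 genes called) or DESeq2 (1.03%). At an unadjusted p below 0.05 there were 2 members, Ddit3 and Chac1, both lower, beside 8.27% of genes. Ddit3 was at 9.96, 10.7, 10.5 and 11.2 CPM in healthy and at 9.83, 8.45, 7.96 and 8.77 CPM in Adriamycin kidneys, with a log2 difference of -0.28 (SE 0.10, adjusted p = 0.431). Chac1 was at 0.915 to 1.101 CPM in healthy and at 0.298 to 0.735 CPM in Adriamycin kidneys, with a log2 difference of -0.73 (SE 0.30, adjusted p = 0.506). Atf4 was at 60.62 to 70.5 CPM and at 53.5 to 60.55 CPM (log2 difference -0.17, SE 0.09, adjusted p = 0.685). In these 3 members every Adriamycin kidney was below every healthy one, while 5.68% of all genes had groups without overlap. Hspa5 was at 313 to 369 CPM in healthy and at 302 to 388 CPM in Adriamycin mice, with a log2 difference of -0.01 and a 95% interval from -0.32 to 0.29. The rise of Hspa5 seen in anti-GBM kidneys, 0.93, is outside that interval, although strain, sex, time and disease differ between the experiments. None of the 8 lists held a called gene in this comparison with edgeR or DESeq2.

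Under FGF23, Adriamycin changed 1 member, Herpud1. It was at 419.5, 403, 472 and 471 CPM in healthy vehicle mice and at 402, 433, 447 and 433 CPM in healthy FGF23 mice. In Adriamycin mice it was at 542, 407, 541 and 505 CPM under vehicle and at 612, 748, 718 and 601 CPM under FGF23. All 4 Adriamycin mice given FGF23 were therefore above the other 12 mice of the experiment. Groups without overlap were found for 6.02% of genes between the FGF23-treated groups and for 3.41% between the Adriamycin groups. Adriamycin under FGF23 called Herpud1 alone among the 10 members (0.699% of genes called), with a log2 fold change of 0.64 (SE 0.09, adjusted p = 0.00353), a 1.56-fold rise. The call held without any 1 mouse, with adjusted p values from 0.00128 to 0.0203. At an unadjusted p below 0.05 there were 3 members in this comparison (12.7% of genes), the others being Dnajb9 (log2 difference 0.25, adjusted p = 0.148) and Asns. Asns was at 3.58, 3.61, 2.80 and 2.92 CPM in healthy FGF23 mice and at 2.13, 2.73, 1.76 and 1.86 CPM in Adriamycin FGF23 mice, without overlap, and its log2 difference of -0.60 (SE 0.15) had an adjusted p of 0.0816.

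Between FGF23 and vehicle within Adriamycin mice, edgeR called no member (0.0375% of genes called), and Herpud1 was the 1 member with an unadjusted p below 0.05 (5.69% of genes). Its log2 difference was 0.43 (SE 0.09, adjusted p = 0.218). DESeq2 gave the same difference of 0.43 and called it (adjusted p = 0.0096, 0.208% of genes called), so this call depends on the tool. The difference between the FGF23 effects in Adriamycin and healthy mice was 0.47 for Herpud1 (SE 0.13, adjusted p = 0.83), and neither tool called a member for this interaction (0% of genes by edgeR, 0.0127% by DESeq2). At an unadjusted p below 0.05 the interaction held 3 members, Herpud1, Asns and Dnajb9, beside 5.11% of genes. The FGF23 differences for Herpud1 in the 2 disease models were thus 0.43 here and -0.27 in anti-GBM mice, from separate fits in different strains, sexes and schedules. That contrast was not tested.

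In the lists, FGF23 in Adriamycin mice called a single gene, Cebpb, a transcription factor that pairs with ATF4 and CHOP and also serves the acute phase response (log2 fold change 1.46, SE 0.18, adjusted p = 0.00543). Cebpb was at 12.2 ± 2.38 CPM (SD, n = 4) in healthy vehicle mice, 12.6 ± 2.61 in healthy FGF23 mice, 12.98 ± 1.62 in Adriamycin vehicle mice and 35.5 ± 7.86 in Adriamycin FGF23 mice. Its levels thus showed the same single high group as Herpud1. The paper already names Cebpb among the top genes of its interaction analysis of these mice. Since the lists were chosen with earlier results of these data known, the call of Cebpb is no independent finding. DESeq2 also called 1 gene of the stress effector list for the interaction. Adriamycin under FGF23 called Cebpb (1.498, SE 0.18) and Ddit4 (1.20, SE 0.21) and no other gene of the lists. The macrophage, fibroblast and tubular injury sums of Adriamycin FGF23 mice were 105 to 131, 67.8 to 209 and 40.1 to 70.0 CPM, against 129 to 191, 89.0 to 290 and 89.0 to 97.9 CPM in healthy FGF23 mice.

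**Figure D4:**
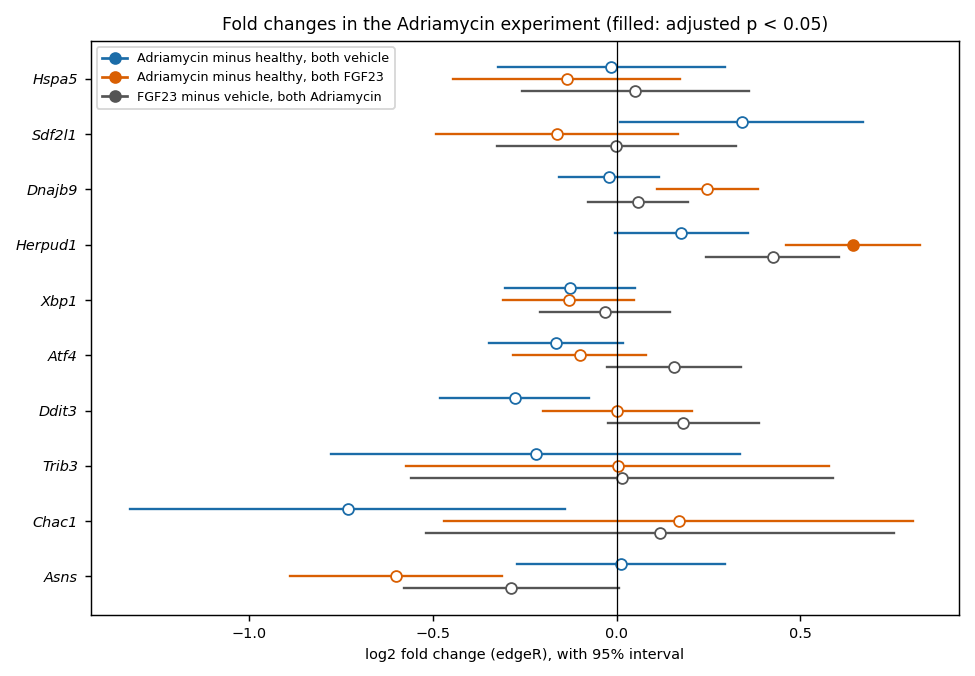
The log2 fold change (point) and its 95% interval (line) of each gene are plotted for Adriamycin under vehicle (blue), Adriamycin under FGF23 (orange) and FGF23 within Adriamycin mice (grey); filled points have an adjusted p below 0.05. Only Herpud1 under FGF23 is filled, and most other intervals include 0.

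In healthy BALB/c mice, 24 h after 1 dose of FGF23, edgeR called no gene (0%), and DESeq2 called 0.134% of genes and no member. DESeq2 gave no adjusted p for Trib3, Chac1 and Asns here, so it could not have called them. There were 4 members at an unadjusted p below 0.05, beside 6.69% of genes: Sdf2l1 and Asns were higher (log2 differences 0.50 and 0.33) and Dnajb9 and Chac1 lower (-0.21 and -0.78). The Sdf2l1 values were 4.58, 4.79, 5.24 and 4.15 CPM under vehicle and 5.82, 5.67, 9.65 and 5.51 CPM under FGF23. Groups without overlap were seen for Sdf2l1 and Asns, and for 3.14% of genes. The 9.65 CPM came from mouse Ad11, which also had the highest Hspa5 of this group (573 CPM, against 294 to 358 CPM in the other 3 mice), Xbp1, Herpud1 and Ddit3. Without Ad11 the Hspa5 difference between FGF23 and vehicle was -0.08, and with it 0.17 (SE 0.16). The tubular injury and macrophage sums of Ad11, 95.8 and 150 CPM, lay within the range of its group.

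In the slices no member was called between FGF23 and vehicle by edgeR (0% of 15090 genes called) or DESeq2 (0.00674%), and none had an unadjusted p below 0.05 (4.89% of genes). In every member the slices of both treatments overlapped, while 3.17% of genes had groups without overlap. Hspa5 was at 9783, 5472, 9497 and 7557 CPM in the vehicle slices and at 4579, 9384, 7077 and 9821 CPM in the FGF23 slices, and its log2 difference was -0.07 (95% interval -0.55 to 0.42). Asns, the most even member, was at 130, 133, 123 and 139 CPM and at 104, 140, 147 and 135 CPM, with a difference of 0.002 (95% interval -0.21 to 0.21). For Atf4 the interval ran from -0.11 to 0.35 and for Ddit3 from -0.12 to 0.55. Changes of 2-fold therefore lay outside these 4 intervals, as did some smaller changes, most of all for Asns. Changes that lie within the interval of a gene could not be shown at this spread. No pathway list held a called gene with edgeR or DESeq2.

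A pair of slice libraries set most of that spread. The FGF23 slice numbered 1 was the lowest of its group in all 10 members, and the vehicle slice numbered 2 was the lowest of its group in 8. In the first, Sdf2l1 was at 75.6 CPM against 140 to 152 CPM in the other 3 FGF23 slices, and Dnajb9 was at 88.7 CPM against 138 to 251 CPM. Its mitochondrial share was 3.98%, against 1.72 to 2.22% in the vehicle slices, and its immediate early sum of 3218 CPM was the highest of the 8 slices. The vehicle slice numbered 2 had the lowest immediate early sum, 1143 CPM. Without the first slice the FGF23 difference of Herpud1 moved from -0.02 to 0.16 and stayed uncalled.

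**Figure D5:**
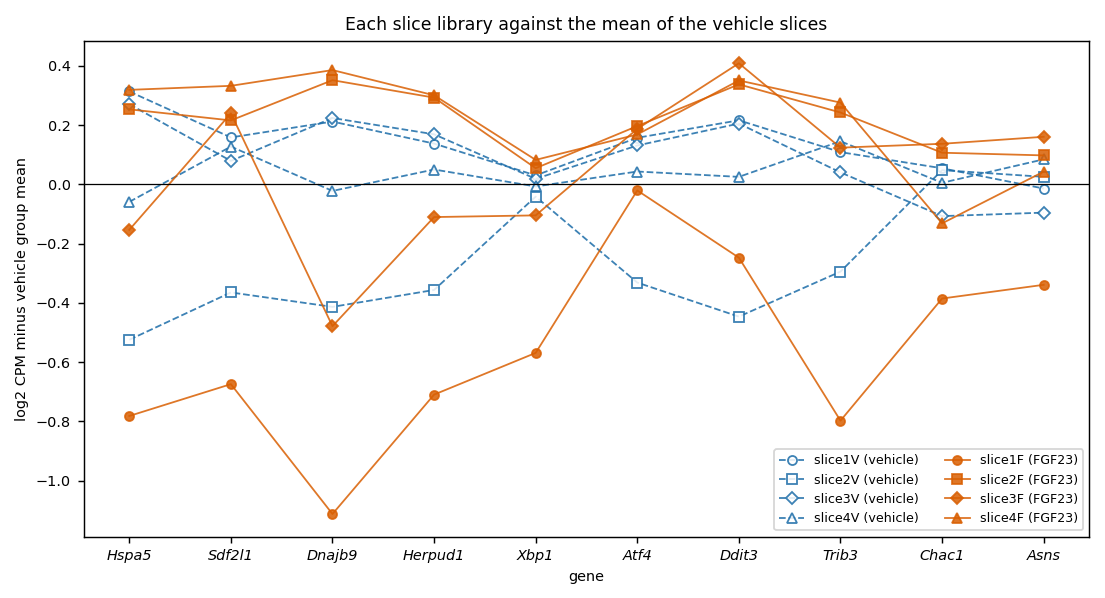
The log2 CPM of each slice library minus the mean of the 4 vehicle slices (vertical axis) is plotted for the 10 genes (horizontal axis); dashed blue lines with open markers are vehicle slices and orange lines FGF23 slices. The lowest line is FGF23 slice 1 in every gene but Atf4 and Ddit3, where it is vehicle slice 2, and the remaining lines of both treatments mix.

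The levels in slices were far from those in kidneys. The experiments were scaled separately, so CPM on total counts are given side by side with no test, and strain, sex, age, disease, culture and the low proximal tubule content cannot be told apart. Mean Hspa5 was 8080 CPM in vehicle slices, 378 CPM in healthy C57BL/6 kidneys and 800 CPM in anti-GBM kidneys. Trib3 had 107 CPM in slices against 1.18 and 1.64 CPM, Chac1 32.3 against 0.466 and 1.03 CPM, and Asns 132 against 3.52 and 10.5 CPM. Relative to healthy C57BL/6 kidneys, these were 90.1-fold, 69.3-fold and 37.6-fold higher levels. Atf4 was 10.3-fold, Ddit3 26.99-fold, Sdf2l1 22.3-fold, Dnajb9 4.02-fold and Xbp1 2.11-fold higher. Herpud1 stood apart with 278 CPM in slices against 287 CPM in healthy kidneys, a ratio of 0.967. More than 8-fold higher levels were found for 7 of the 10 members and for 10.4% of 15393 genes with at least 1 CPM in either group, and against anti-GBM kidneys for 5 members and 5.47% of genes.

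Finally, the genes whose group means followed a member most closely over the 10 groups were listed among 13974 genes. The means of log2 CPM were centred within each experiment first, so the difference in level between slices and kidneys does not enter these correlations. For Hspa5 and Asns the widest gaps left were between healthy and anti-GBM kidneys. Under vehicle their mean log2 CPM was 8.67 and 9.59 for Hspa5, and 1.93 and 3.32 for Asns. That contrast weighs heavily in these correlations, and the points share their scaling within an experiment. For Hspa5 the closest was Hyou1 (Pearson r = 0.999), followed by the collagen cross-linking enzyme gene Loxl2 and by Ifi207 (both 0.996). For Asns they were Fam57a (0.994), Fstl3, an inhibitor of activins (0.992), and Mex3a, an RNA-binding protein gene (0.992).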

How the data were processed

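Bulk RNA-Seq of 38 mouse libraries was reanalysed from the table of raw gene counts that the authors deposited. Per the submitters' processing notes and the methods of the study, a stranded mRNA kit was used, and the reads were demultiplexed with bcl2fastq 2.20.0, aligned with STAR 2.7.9a to GRCm38 and counted with featureCounts 1.5.1. Whether strand was used in counting is not given in the sources used here. Symbols were matched for 55141 of 55487 identifiers. The deposited counts were unfiltered and not normalized, and 0 columns were left unused. Samples were grouped from their labels. The in vivo columns of the count table name the experiment and the mouse but neither the group nor the replicate number of the labels, so the group of each of these columns, and the name of mouse NTS14, were taken from the column headings of the supplementary tables of the study. The slice columns were matched to the labels by number and treatment letter.

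All groups of an experiment entered 1 fit in edgeR 4.0.16 (R 4.3.3): TMM scaling, filterByExpr with a minimum count of 10, quasi-likelihood test, Benjamini-Hochberg adjustment over all genes tested within a comparison, cutoff 0.05. Log2 CPM used a prior count of 2. Standard errors were taken as the log2 fold change over the root of the F statistic, and 95% intervals from the normal distribution around them. Such intervals are somewhat narrower than the quasi-likelihood test implies. For Herpud1 in anti-GBM under vehicle the interval was 0.05 to 1.23, although the unadjusted p of that test was 0.0501. The code was tested on simulated counts. DESeq2 1.42.0, which the study used, was an alternative, together with RLE scaling, no filter, at least 10 counts in every library, robust dispersion, only the groups compared, a log2 fold change over 1, and leaving out each library. The labels number biological replicates without saying whether slices came from separate mice, and p-values measure only the spread between these libraries.

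The members and the gene lists were chosen with earlier results of these data known. Named were all members in every comparison, of each list up to 3 called genes with the smallest p, and the 3 genes most like Hspa5 and Asns. The 16 marker lists were given by summed CPM or by their called genes. Any 2 replicates differed by a chi-square of at least 2.12 per degree of freedom, above sampling noise, so none was counted as a duplicate.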

Additional observations from a re-analysis of the deposited data

Results flagged for a closer look

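Member levels on log2 scale were examined for a library far from the other 3 in the groups of 4, over 80 pairs of gene and group, of which 11 stood out. The measure is the gap to the nearest library divided by the range of the group, and chance alone marks about 1 pair in 20. Several pairs come from the same library and are not independent.

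In the slices, FGF23 slice 1 was far below the others in Sdf2l1 (75.6 CPM against 140 to 152 CPM, gap 0.884 of the range), Atf4 (570 against 650 to 663 CPM, 0.870), Ddit3 (132 against 198 to 208 CPM, 0.892) and Trib3 (60.6 against 115 to 128 CPM, 0.858). Vehicle slice 2 was low in Sdf2l1 (93.7 against 128 to 135 CPM, 0.848).

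Healthy BALB/c mouse Ad11, given FGF23, was high in Sdf2l1 (9.65 against 5.51 to 5.82 CPM, 0.904), Xbp1 (149 against 114 to 119 CPM, 0.833) and Ddit3 (11.2 against 9.39 to 9.56 CPM, 0.899). Adriamycin mouse Ad13, also given FGF23, was low in Trib3 (0.571 against 1.14 to 1.22 CPM, 0.909). Healthy mouse Ad4 was high in Chac1 (1.101 against 0.915 to 0.940 CPM, 0.860) and healthy mouse NTS2 low in Herpud1 (304 against 313 to 314 CPM, 0.902), where the other libraries lay so close together that the gaps are small in CPM.

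The groups of 3, which hold NTS16, were not examined in this way. No interaction of FGF23 with disease was called for a member in either model.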

How the results depend on the processing

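Of 740 values of single members under alternatives other than leaving out a library, 729 kept direction and side of the cutoff, 7 lost their call and 4 gained one. A sign change was counted only where the main value exceeded its SE. Requiring an absolute log2 fold change over 1 left 2 members called for anti-GBM under vehicle, 0 for Adriamycin under FGF23 and 6 for anti-GBM under FGF23, where Xbp1 and Atf4 lost their calls. DESeq2 called 1 member (Herpud1) for FGF23 in Adriamycin. Herpud1 was also called for anti-GBM under vehicle with no filter and with only the groups compared (adjusted p = 0.048 and 0.00378), and Dnajb9 for anti-GBM under FGF23 with no filter (0.0461). The causes of these and the following shifts in counts of all genes called were not tested.

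Genes called for FGF23 in anti-GBM were 60 with no filter, 153 with DESeq2, 25 with the fold limit and 12 with only the groups compared, against 38. Its interaction gave 3 with RLE, 29 with no filter and 44 with DESeq2, against 5. With the fold limit, anti-GBM under vehicle gave 1554 and under FGF23 1444. FGF23 in healthy BALB/c gave 1 with no filter and 16 with DESeq2, against 0. FGF23 in Adriamycin gave 21, 35, 1 and 3 with no filter, DESeq2, the fold limit and only the groups compared, against 6, and its interaction 1 and 4 with no filter and DESeq2, against 0. Adriamycin under vehicle gave 98, 155, 31 and 19 under the same 4 settings, against 53. Adriamycin under FGF23 gave 263 with DESeq2, 31 with the fold limit and 43 with only the groups compared, against 112. The slices gave 2 with no filter and 2 with DESeq2, against 0.

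Leaving out each library in turn gave 0 to 1 (without NTS9) genes for FGF23 in healthy C57BL/6, 12 (without NTS13) to 49 (without NTS16) in anti-GBM, 0 to 14 (without NTS16) for the interaction, 0 to 4 (without Ad12) in healthy BALB/c, 1 (without Ad14) to 12 (without Ad16) in Adriamycin, 0 to 1 (without Ad16) for its interaction, 10 (without Ad3) to 100 (without Ad6) for Adriamycin under vehicle and 21 (without Ad14) to 119 (without Ad12) for Adriamycin under FGF23. Members called for FGF23 in anti-GBM ran from 0 to 1, the 1 being Herpud1 without NTS16. Directions turned in 4 of 1580 such values, none called: Sdf2l1 for FGF23 in anti-GBM ranged from -0.085 (without NTS16) to 0.62, Herpud1 for anti-GBM under FGF23 from -0.40 (without NTS16) to 0.73, Hspa5 for FGF23 in healthy BALB/c from -0.084 (without Ad11) to 0.29, and Atf4 for Adriamycin under FGF23 from -0.18 to 0.0030 (without Ad9).

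In the slices, a fit with the replicate block called 0 genes and 0 members, as without it. Same-numbered slices deviated together only weakly (correlations 0.107, 0.105, -0.105 and 0.112), and slices with unlike numbers gave correlations from -0.161 to 0.124. The numbers were not taken as pairs, although these values cannot settle whether same-numbered slices came from the same mouse. Requiring 10 counts in every library left Chac1 out in all experiments but the slices. The mice were analysed without pairs. The paper describes random allocation of mice to FGF23 or vehicle, and their columns carry no replicate number shared between groups. Depth limits Chac1 and Trib3 most, with 2 to 64 and 11 to 118 reads per kidney library.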
